A study of Homo sapiens with 7 samples.

Results

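The regions described here are DNA segments that were called as peaks in unprecipitated chromatin under both small interfering RNAs (siRNAs) of the study. A peak of the siControl input list belonged to them when it overlapped a peak of the siVRK1 input list by 1 bp or more, on chromosomes 1 to 22 and outside 3 peak-rich windows. The windows were chromosome 3 from 105 Mb, chromosome 5 under 20 Mb and chromosome 18 from 5 to 15 Mb. Of the 17980 peaks of the siControl input list, 11163 lay on these chromosomes outside the windows, and 2377 of them (21.3%, 20.5 to 22.1) were shared. They met 2316 distinct peaks of the siVRK1 input, so that 8786 siControl input peaks and 11995 siVRK1 input peaks on the same chromosomes had no partner.

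The cells were HT1080, a human fibrosarcoma line, transfected with siRNA against the kinase VRK1 (siVRK1) or with non-targeting siRNA (siControl). Chromatin of fixed, sonicated nuclei was immunoprecipitated and sequenced for histone H2A phosphorylated at T120 (pT120) in siVRK1 and siControl cells, for H2A ubiquitylated at K119 (ubK119) in siVRK1 and siControl cells, and for VRK1 in siControl cells, with input DNA of siVRK1 and siControl cells. That gave 7 libraries of 20687394 to 40442651 reads, 1 per condition. VRK1 was not profiled after siVRK1, so its depletion is not verified in these files, and with 1 library each a comparison is one of libraries and not of conditions. Values in parentheses are 95% intervals of counting error only, since reads amplified by PCR without molecular identifiers are not independent molecules, and no p-value is given.

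Input DNA is chromatin that was sheared and sequenced without an antibody. Repeated sequence that is under-represented in the genome assembly, such as satellite DNA beside centromeres, collects reads from many unplaced copies in any library, as do amplified or easily sheared stretches, and such places appear as peaks in input. VRK1 is a nuclear kinase that phosphorylates H2A at T120. Ubiquitin at the neighbouring K119 is placed by Polycomb repressive complexes and is associated with silent genes. Reads of an antibody library at an input peak are therefore read against the input of the same siRNA: a ratio of 1 means that the antibody library holds the region in the same proportion as unprecipitated DNA.

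These regions were chosen by the peaks, and so by the read heights, of both inputs. Input heights and input reads are thus given as a description only, and a region chosen for high input favours a ratio below 1, by an amount that was not tested. The peaks of 1 input only are given beside them as a description. At siVRK1-only input peaks siVRK1 pT120 stood at 0.219 and siVRK1 ubK119 at 0.613 times their own input, and at siControl-only input peaks siControl ubK119 stood at 0.326 times its own input, while VRK1 stood at 1.23 times the siControl input where the siVRK1 input had been the one chosen and at 0.441 times where the siControl input had been. Shared peaks had to pass in both inputs. The files name no genes, and gene content is not analysed here because the annotation at hand is of another genome build. Positions are in hg19 as deposited.

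Shared peaks were longer and taller than the peaks of 1 input. Their median length was 363 bp against 206 bp for siControl-only peaks, their median height 17 against 12 extended reads, and together they covered 1.43 Mb. Lengths ran from 200 bp to 23707 bp and heights from 12 to 26505 reads, so the set spans ordinary short peaks and a few extreme ones. Of the 2377 regions, 2064 (86.8%, 85.4 to 88.2) were covered by siVRK1 input peaks over at least 50% of their length, and 781 (32.9%, 31.0 to 34.8) in full. At the edge of the rule, 3 shared peaks overlapped by only 2 bp: chr10:114592876-114593076 with 7 reads in the siVRK1 and 14 in the siControl input, chr20:33156564-33156766 with 7 and 13 reads, and chr6:44306099-44306328 with 6 and 11 reads in the same order. Just outside it were 3 peaks that touched a siVRK1 input peak with a gap of 0 bp: chr16:71046233-71046571 with 11 and 17 reads, chr4:50510-50746 with 11 and 16 reads, and chr7:100552534-100552734 with 10 and 12 reads. Only 94 shared peaks overlapped by under 50 bp, and 249 unshared siControl peaks lay within 200 bp of a siVRK1 input peak.

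Few of the shared peaks held most of the reads. The 378 regions with more than 100 siControl input reads had 84.0% of the siControl input reads in the set, and the 8 regions with the most input reads had 44.3%. The single highest, chr1:121483973-121485649 at the edge of the peak-free stretch of chromosome 1, had 52414 reads in the siVRK1 and 52660 reads in the siControl input, 15.2% of the siControl input reads of all shared peaks. Sums over the set are therefore sums over these regions first, and medians over single regions are given beside them. The whole set took up 0.888% of the siVRK1 pT120 library and 1.08% of the siControl pT120 library, 1.14% of siVRK1 ubK119 and 0.850% of siControl ubK119, 1.12% of VRK1, and 1.18% of the siVRK1 and 1.29% of the siControl input. The inputs thus had the largest shares, as the choice of the regions favours.

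Their positions were concentrated. Each chromosome has at least 1 stretch of 2.9 Mb or more with no peak in any of the 7 lists, and the stretch whose flanks hold the most siControl input reads was taken as its centromere-like gap, since gaps of the assembly and unmappable satellite DNA give such stretches. Within 2 Mb of it lay 1110 shared peaks (46.7%, 44.7 to 48.7) against 473 of 8786 siControl-only input peaks (5.38%, 4.92 to 5.88). Taking the longest stretch instead gave 44.4% and 5.30%. Shared peaks also lay close to each other: 66.5% (64.6 to 68.4) had another within 10 kb, against 22.8% (21.9 to 23.7) of the more numerous siControl-only peaks. In 26 windows of 1 Mb there were 20 or more shared peaks, together 1093 of them (46.0%), and 20 of these windows touched the flanks of a stretch.

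By chromosome, the share of siControl input peaks that were shared ran from 6.93% on chromosome 13, with 79 of them beside 1061 unshared peaks, to 55.5% on chromosome 21, with 171 beside 137. Chromosomes 4 (53.1%) and 16 (51.6%) were close to chromosome 21. The window with the most shared peaks, 95 between 19 and 20 Mb of chromosome 20, was not beside a stretch, nor were those with 54 at 190 to 191 Mb of chromosome 4, with 53 at 145 to 146 Mb of chromosome 1 and with 39 at 75 to 76 Mb of chromosome 3. On chromosome 21 a pair of windows from 10 to 12 Mb held 66 and 67 shared peaks, beside the stretch that starts there.

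The siVRK1 pT120 library was most like a library of another antibody and siRNA at these regions. Over the mean of both inputs, a divisor that is the same for every library, the 637 shared peaks with at least 50 reads in each input showed siVRK1 pT120 most like siControl ubK119 (Pearson's r = 0.698, Spearman's rho = 0.708). VRK1 was alike with siVRK1 ubK119 (r = 0.665) and with siControl pT120 (r = 0.654), which has the same siRNA. For siVRK1 pT120 with siControl ubK119 r was 0.752 in 493 regions near a stretch and 0.609 in 144 away. Away from stretches VRK1 had higher values, 0.816 with siControl pT120 and 0.765 with siVRK1 ubK119. In 1159 shared peaks of the left-out windows with 20 reads in each input these likenesses were weaker. There siVRK1 pT120 with siControl ubK119 had 0.428, and VRK1 with siVRK1 ubK119 had 0.464. At the same limit of 20 reads the 1343 shared peaks outside the windows had 0.669 and 0.595. Over the 637 regions the siControl pT120 library had r = 0.451 (rho = 0.495) with siControl ubK119 and r = 0.294 (rho = 0.391) with siVRK1 pT120. There siVRK1 pT120 against siVRK1 ubK119 had r = -0.348 and the ubK119 libraries against each other r = 0.101. The correlations are across regions that share libraries, depth and the divisor and are not independent replicates. Every difference between siVRK1 and siControl below carries this likeness, in which library, antibody and siRNA cannot be told apart with 1 library per condition. No value here checks the antibody and siRNA labels of these libraries independently. An exchange of labels, or a difference in how libraries were made, was not tested, and an exchange would change what each pT120 and ubK119 change means. Per the file headers the antibody libraries carry tags that differ among them, while both inputs carry the same one, and the headers do not say what the tags are.

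Summed over the 2377 regions, each antibody library stood below its own input. The siVRK1 pT120 library had 8877 RPM (the reads of a region scaled to the total of its library) against 11795 RPM in the siVRK1 input, a ratio of 0.753 (0.749 to 0.756). The siControl pT120 library had 10817 RPM against 12920 RPM in the siControl input, a ratio of 0.837 (0.833 to 0.842). For ubK119 the siVRK1 library had 11446 RPM, 0.970 (0.966 to 0.975) of its input, and the siControl library 8498 RPM, 0.658 (0.655 to 0.661) of its input. VRK1 reached 11207 RPM, 0.867 (0.863 to 0.871) of the siControl input. The siVRK1 ubK119 library thus came nearest to the proportions of unprecipitated DNA and siControl ubK119 was farthest from them. At 59528 antibody peaks outside both inputs, regions chosen for high antibody reads, the same ratios were 1.397 for siVRK1 pT120, 1.14 for siControl pT120, 1.57 for siVRK1 ubK119, 1.62 for siControl ubK119 and 1.35 for VRK1.

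Single regions also had siVRK1 pT120 and siControl ubK119 lowest, but with siVRK1 pT120 below siControl ubK119, the reverse of their order in the sums. Among 1343 shared peaks with at least 20 reads in each input, the median ratio over own input was 0.596 for siVRK1 pT120 and 0.809 for siControl pT120, 0.977 for siVRK1 ubK119 and 0.632 for siControl ubK119, and 0.867 for VRK1. The siVRK1 pT120 median lay well below the ratio of the sums, 0.753, to which the 84 regions with 1000 or more reads of both inputs contributed most, with a ratio of 0.794 (0.790 to 0.799). From the 5th to the 95th percentile of regions siVRK1 pT120 ran from 0.185 to 1.503, a wider spread than siVRK1 ubK119 with 0.537 to 1.56. The 2267 shared input peaks inside the left-out windows, 1159 of them with 20 reads in each input, had medians of 0.601 for siVRK1 pT120, 0.816 for siControl pT120, 0.898 for siVRK1 ubK119, 0.614 for siControl ubK119 and 0.827 for VRK1. By these medians the windows resembled the shared peaks outside them, with the largest gap at siVRK1 ubK119. In the sums the largest gap was at siVRK1 pT120, with 0.589 in the windows against 0.753 outside. The 95th percentile of siVRK1 pT120 was 1.17 in the windows against 1.503 outside. At least 1.5-fold above input were 0.863% of window regions against 5.06% outside.

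**Figure D1:**
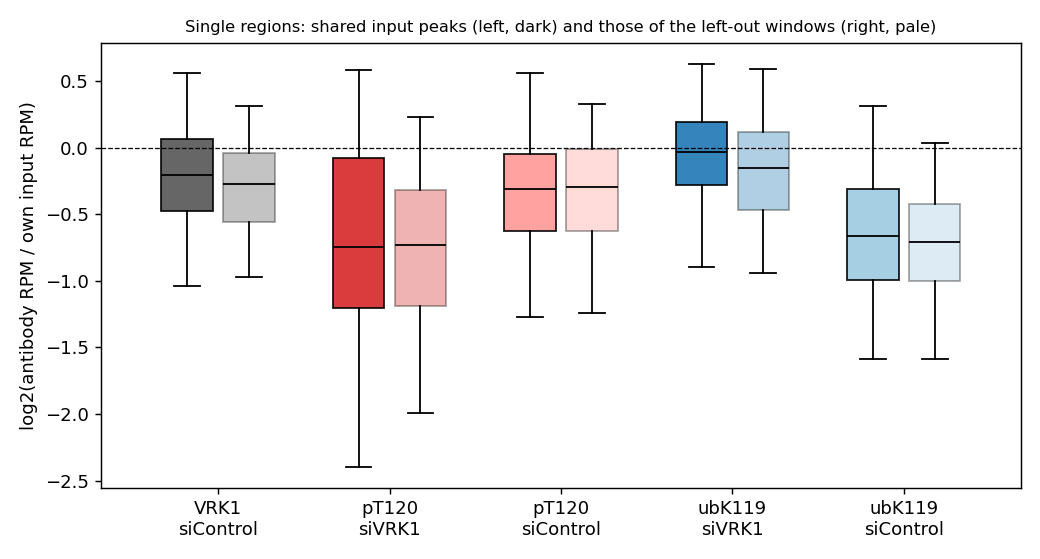
Log2 ratio of antibody RPM over own input RPM for single regions with at least 20 reads in each input, for 1343 shared input peaks (left, dark) and 1159 shared input peaks of the left-out windows (right, pale). Boxes give the quartiles and the median, whiskers the 5th and 95th percentiles, and the dashed line marks equality with input; regions at 0 antibody reads are not drawn. The boxes of siVRK1 pT120 and siControl ubK119 sit lowest in both sets.

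Regions past 1.5-fold were mostly on the low side. A count is set beside the same share among all 2849 peaks of the siControl input list with 20 reads in each input, sex chromosomes and windows included, of which the shared peaks are a large part. For siVRK1 pT120, 746 shared peaks (55.5%) stood at least 1.5-fold below own input, against 57.1% of that background, and 68 (5.06%) at least 1.5-fold above, against 3.44%. For siControl pT120 there were 367 (27.3%) below against 28.1%, and 62 (4.62%) above against 3.02%. For siVRK1 ubK119 there were 148 (11.02%) below against 13.5%, and 78 (5.81%) above against 5.48%. For siControl ubK119 there were 757 (56.4%) below against 59.8%, and 36 (2.68%) above against 1.4%. For VRK1 there were 237 (17.6%) below against 21.3%, and 66 (4.91%) above against 3.26%. The shares below input were near the background, and those above it were somewhat larger for each library. The background consists mostly of these shared peaks and of 1159 shared peaks of the left-out windows, so closeness to it was favoured in advance. No count sets the shared peaks apart from other input peaks of like depth.

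Some of these calls rest on which input serves as divisor. Asking for at least 1.5-fold against each of both inputs left 18 regions above for siVRK1 pT120 (1.34%, background 0.702%) and 12 for siControl pT120 (0.894%, background 0.667%). It left 29 for siVRK1 ubK119 (2.16%, background 2.14%), 9 for siControl ubK119 (0.670%, background 0.316%) and 14 for VRK1 (1.04%, background 0.632%). Below both inputs there were 690 regions for siVRK1 pT120 (51.4%, background 53.3%), 203 for siControl pT120 (15.1%, background 14.2%), 8.86% of regions for siVRK1 ubK119 (background 11.2%), 569 for siControl ubK119 (42.4%, background 41.7%) and 92 for VRK1 (6.85%, background 6.77%). VRK1 thus had 14 regions above both inputs and 66 above the siControl input alone, while siVRK1 pT120 had 690 below both and 746 below the siVRK1 input alone.

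The ratio over input depended on input depth and on position together. Away from the stretches, siVRK1 pT120 stood at 0.365 (0.352 to 0.379) of its input in the 685 regions with under 40 reads of both inputs summed, and at 0.642 (0.627 to 0.657) in the 73 regions with 200 or more but under 1000 reads. Within 2 Mb of a stretch the same library stood at 0.704 (0.669 to 0.742) in the 201 regions with under 40 reads and at 0.817 (0.812 to 0.821) in the 74 regions with 1000 reads or more. Away from stretches VRK1 stood at 0.702 (0.681 to 0.723) in the lowest class and 1.199 (1.17 to 1.23) at 200 or more but under 1000 reads, and siControl pT120 at 0.609 (0.588 to 0.632) and 1.16 (1.13 to 1.195). In the 10 regions away from stretches with 1000 reads or more the ratios were lower again, with 0.582 (0.570 to 0.594) for siVRK1 pT120, 0.871 (0.851 to 0.891) for siControl pT120 and 0.955 (0.936 to 0.974) for VRK1. Near stretches VRK1 lay between 0.835 and 0.906 in every class. The part of the choice for input reads in these differences was not tested.

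**Figure D2:**
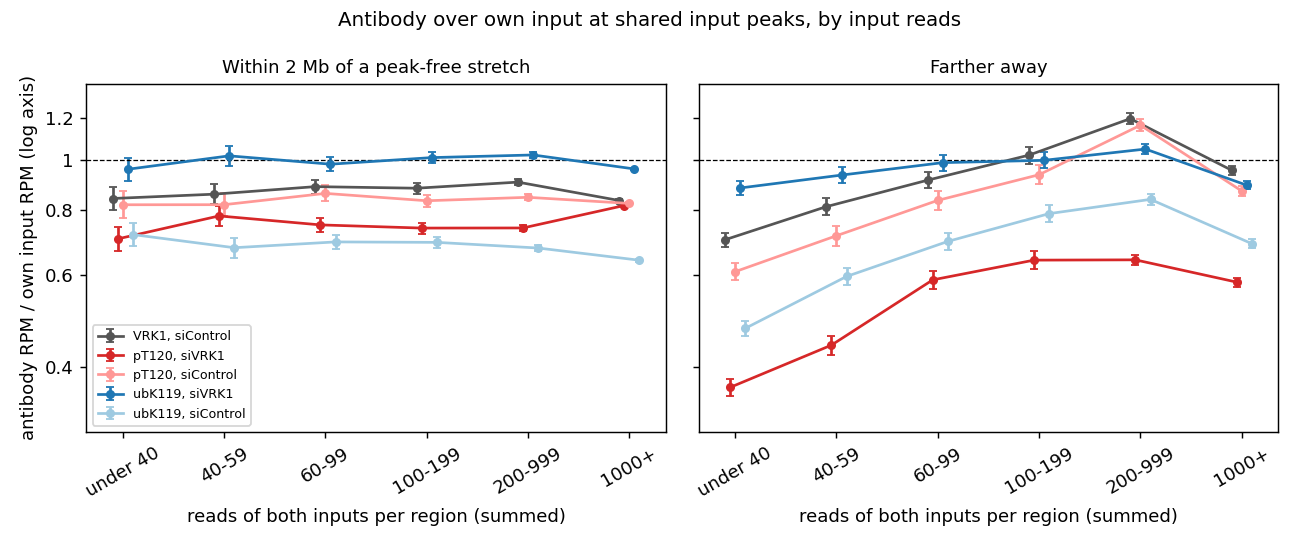
Ratio of summed antibody RPM over own input RPM (log axis) in 6 classes of shared input peaks by the summed reads of both inputs, for regions within 2 Mb of the peak-free stretch with the densest flanks (left) and farther away (right). Bars are 95% intervals of counting error. Near stretches the lines run almost level, and away from them siVRK1 pT120 stays below the other libraries in every class.

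Within 2 Mb of a stretch the 1110 regions had 81.9% of the siVRK1 and 84.0% of the siControl input reads of the set. Their siVRK1 pT120 ratio was 0.796 (0.791 to 0.7996), and that of the 1267 regions farther away was 0.559 (0.553 to 0.566). For siControl pT120 the values were 0.829 (0.825 to 0.834) near and 0.879 (0.867 to 0.890) away, so that the order of near and away turned between the siRNAs. Those sums rest on a few large regions, and the medians of single regions with 50 reads in each input lay closer together for siVRK1 pT120, at 0.635 in 493 regions near and 0.578 in 144 away. VRK1 stood at 0.851 (0.847 to 0.855) near and 0.954 (0.943 to 0.965) away, and siControl ubK119 at 0.652 (0.649 to 0.656) near and 0.687 (0.679 to 0.695) away. For siVRK1 ubK119 the order was the opposite, with 0.975 (0.970 to 0.980) near and 0.952 (0.941 to 0.962) away. Its medians of single regions with 50 reads in each input were 0.991 near and 0.985 away. With the longest stretch instead, regions away from it had 0.977 against 0.970 over all regions, so this order depended on the stretch taken. The input itself had a siVRK1 over siControl ratio of 0.889 (0.885 to 0.894) near and 1.04 (1.02 to 1.05) away, a difference that enters every ratio over own input.

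The comparison of siVRK1 with siControl cells asks how the H2A marks at these regions differed after siVRK1. Divided each by its own input, pT120 was lower in siVRK1 cells, with a siVRK1 over siControl ratio of 0.899 (0.893 to 0.905), and ubK119 was higher, with 1.48 (1.47 to 1.49). Undivided RPM gave pT120 a ratio of 0.821 (0.816 to 0.825) and ubK119 a ratio of 1.35 (1.34 to 1.35), beside an input ratio of 0.913 (0.909 to 0.917). Near a stretch the pT120 change over own input was 0.959 (0.952 to 0.967) and away from it 0.636 (0.625 to 0.648), whereas ubK119 had 1.49 (1.48 to 1.51) near and 1.39 (1.36 to 1.41) away. As medians of single regions with 50 reads in each input, the pT120 change was 0.854 near and 0.685 away. Leaving out the single highest region gave 0.861 (0.855 to 0.868) for pT120. The shared peaks of the left-out windows had 0.732 for pT120 and 1.48 for ubK119. In undivided RPM the order of near and away turned for ubK119, with 1.33 near and 1.44 away. For pT120 it stayed, with 0.853 near and 0.660 away. Medians of the same single regions, undivided, were 1.48 near and 1.46 away for ubK119, and 0.754 near and 0.683 away for pT120.

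Of the 1343 regions with 20 reads in each input, 508 (37.8%) had pT120 at least 1.5-fold lower in siVRK1 than in siControl cells over own input, against 39.6% in the background, and 190 (14.1%) at least 1.5-fold higher, against 14.2%. For ubK119, 715 regions (53.2%) were at least 1.5-fold higher in siVRK1 cells, against 51.8%, and 87 (6.48%) at least 1.5-fold lower, against 4.53%. The shares again lay close to those of this background, with the widest relative gap at the lower ubK119 calls. Most of the background is shared peaks, these 1343 and 1159 of the left-out windows, so closeness was favoured in advance. Peaks of 1 input differed: the summed pT120 and ubK119 changes were 1.52 and 3.22 at siControl-only peaks. At siVRK1-only peaks they were 0.195 and 0.767, and the choice by 1 input enters these changes. Without division by input, pT120 was at least 1.5-fold lower in 553 regions (41.2%, background 45.7%) and at least 1.5-fold higher in 78 (5.81%, background 5.62%), so the higher pT120 calls were far fewer. The undivided ubK119 change was at least 1.5-fold higher in 637 regions (47.4%, background 43%) and at least 1.5-fold lower in 92 (6.85%, background 5.93%).

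Both changes were linked region by region. Among the 637 regions with 50 reads in each input, the siVRK1 over siControl RPM ratio of pT120, not divided by input, ran against that of ubK119 (Pearson's r = -0.768, Spearman's rho = -0.747). No library enters both ratios. The relation was -0.786 for the 493 regions near a stretch and -0.792 for the 144 away from one, and, with 20 reads in each input, -0.626 over 1343 shared peaks and -0.491 over 1159 regions of the left-out windows. In 468 of the 637 regions (73.5%) pT120 was lower and ubK119 higher in siVRK1 cells, in 93 (14.6%) the reverse held, in 50 both were higher and in 26 both lower. With 20 reads in each input, pT120 was lower and ubK119 higher in 67.7% of the 1343 shared peaks. The share was also 67.7% in the 1159 regions of the left-out windows. Over the 637 regions the input change ran the same way as the ubK119 change (r = 0.336) and against the pT120 change (r = -0.439). The libraries most alike over these 637 regions were siVRK1 pT120 and siControl ubK119. They stand above the line in the pT120 ratio and below it in the ubK119 ratio, so their likeness enters the relation. The siControl pT120 and siVRK1 ubK119 libraries enter it too, and the part of each was not tested.

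**Figure D3:**
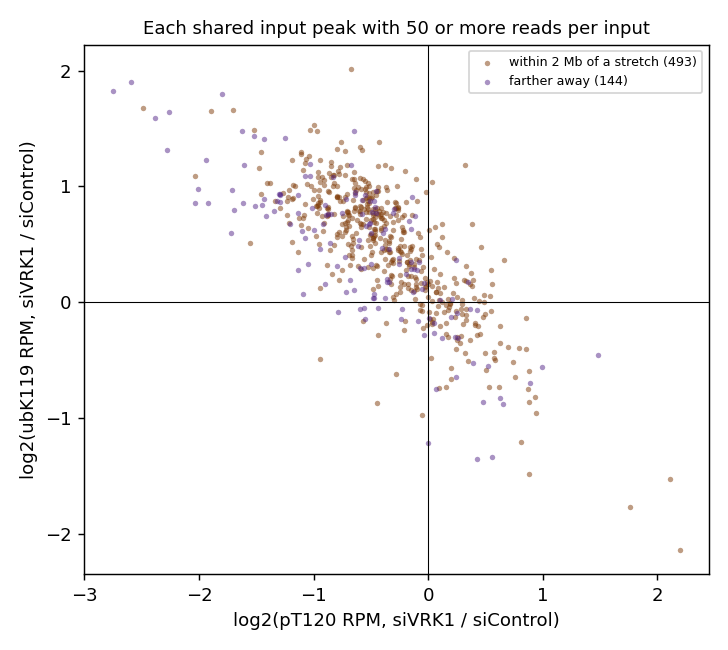
Log2 siVRK1 over siControl RPM ratio of ubK119 against that of pT120, not divided by input, for each of 637 shared input peaks with at least 50 reads in each input, brown within 2 Mb of a peak-free stretch (493) and purple farther away (144). Most points lie at the upper left, with pT120 lower and ubK119 higher in siVRK1 cells, and 3 points of chromosome 8 lie at the lower right.

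Chromosomes differed in pT120 more than in ubK119. The pT120 change over own input was below 1 on 14 of 22 chromosomes, and without division by input on 21 of 22. Over own input its extremes were chromosome 13, with 0.451 (0.398 to 0.512), and chromosome 8, with 1.799 (1.72 to 1.88). Chromosomes 15 (0.482, 0.308 to 0.754, from 6 regions) and 17 (0.562, 0.530 to 0.596) were next to chromosome 13, and chromosome 19 (1.17, 1.14 to 1.21) was next to chromosome 8. The ubK119 change was above 1 on 21 of 22 chromosomes, up to 1.84 (1.66 to 2.05) on chromosome 13, and was 0.981 (0.938 to 1.03) on chromosome 8. Chromosome 8 rests on a cluster of 4 regions: without it, the other 60 regions of the chromosome had a pT120 change of 0.990 (0.935 to 1.05) and a ubK119 change of 1.38 (1.31 to 1.46). Chromosome 19 rests mostly on chr19:27731774-27740657, with 16183 of its 18811 siControl input reads in shared peaks. In the same way chr6:58774261-58780066 had 22463 of 25100 reads on chromosome 6, and chr18:18510970-18520553 had 14255 of 18848 on chromosome 18.

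**Figure D4:**
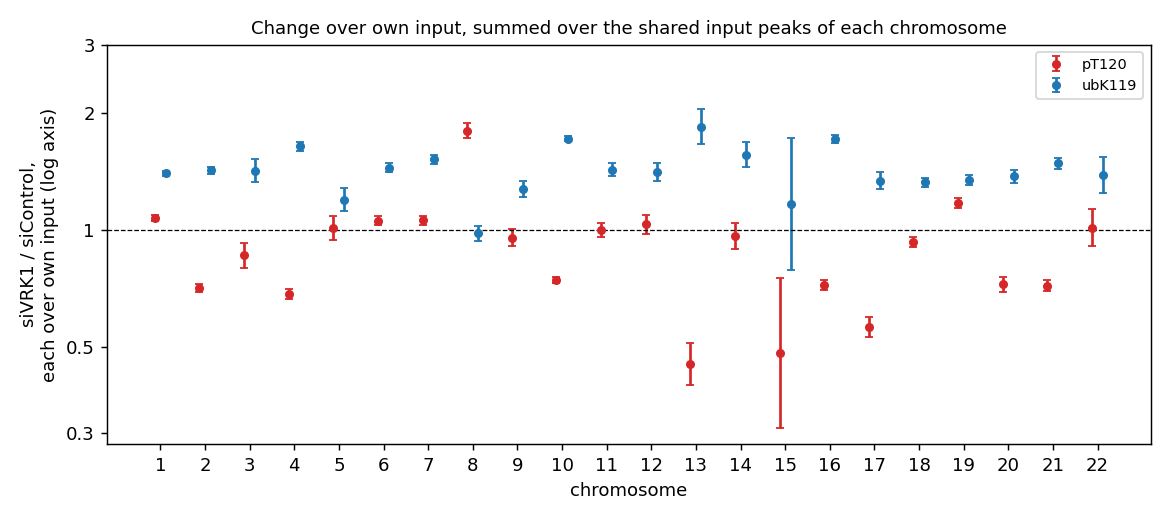
Ratio of siVRK1 to siControl for pT120 (red) and ubK119 (blue), each over own input, summed over the shared input peaks of each chromosome (vertical log axis, chromosomes 1 to 22 along the horizontal axis). Bars are 95% intervals of counting error. ubK119 lies above 1 on every chromosome but 8, and pT120 ranges from 0.451 on chromosome 13 to 1.799 on chromosome 8.

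The regions with the most input reads fell into a high and a low range for siVRK1 pT120. Of the 84 with 1000 or more reads of both inputs, 32 had siVRK1 pT120 at 0.8 of its input or more, 43 under 0.6 and only 9 between, limits that were chosen after the values were seen. Over the 32 regions VRK1 had a median of 0.819, siControl pT120 0.858 and siControl ubK119 0.720. Over the 43 regions VRK1 had 0.978, siControl pT120 0.763 and siControl ubK119 0.567. The pT120 change had a median of 1.18 in the 32 regions and 0.620 in the 43, and the ubK119 change 1.34 and 1.76. The siVRK1 pT120 ratio that split the regions is part of the pT120 change, so the split itself favours that contrast. Chromosomes 10 (11 regions), 4 (10) and 16 (9) held the most of the 43 low ones, and chromosome 2 (7) the most of the 32. Of the 84 regions, 74 lay within 2 Mb of a stretch. Regions beside the same stretch share their surroundings, so the 84 are not as many separate places.

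Among the 8 highest peaks by siControl input height, 6 stood in the high range. The one on chromosome 8 stood far above its input and is described with its neighbours, and the other 5 were near the level of their input and within 2 Mb of a stretch. At chr1:121483973-121485649 siVRK1 pT120 had 1474 RPM, siControl pT120 1595, siVRK1 ubK119 1499, siControl ubK119 1287 and VRK1 1543 RPM, with 1576 RPM in the siVRK1 and 1958 RPM in the siControl input. The 7 libraries were thus within 1287 to 1958 RPM, and the siControl input alone stood above the rest. Its pT120 change over own input was 1.15 (1.13 to 1.17) and its ubK119 change 1.45 (1.42 to 1.47), both above 1, beside a siVRK1 over siControl input ratio of 0.805. The regions chr6:58774261-58780066, chr7:61968151-61972174, chr18:18510970-18520553 and chr19:27731774-27740657 were alike, with siVRK1 pT120 at 0.971 to 1.01 of its input, pT120 changes of 1.09 to 1.19, ubK119 changes of 1.32 to 1.45 and input ratios of 0.808 to 0.836. In these regions without division by input pT120 was slightly lower in siVRK1 cells, from 0.883 to 0.986, so the direction of the pT120 change there turns on the division by input.

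The longest shared peak belonged to the low range. At chr10:42373709-42397416, 23707 bp long, siVRK1 pT120 had 471 RPM, siControl pT120 777, siVRK1 ubK119 971, siControl ubK119 516 and VRK1 873 RPM, with 1019 RPM in the siVRK1 and 1044 RPM in the siControl input. The inputs were nearly level, and siVRK1 pT120 and siControl ubK119 were the low libraries. The pT120 change was 0.620 (0.604 to 0.637) and the ubK119 change 1.93 (1.88 to 1.98). At chr4:49149071-49153613 siVRK1 pT120 had 48.6 RPM, siControl pT120 93.6, siVRK1 ubK119 139, siControl ubK119 67.4 and VRK1 122 RPM, with 122 RPM in the siVRK1 and 115 RPM in the siControl input. Again the same 2 libraries were low, at 0.397 and 0.588 of their inputs, with a pT120 change of 0.486 (0.448 to 0.526) and a ubK119 change of 1.93 (1.7998 to 2.06).

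A cluster beside the stretch of chromosome 8 went the other way. At chr8:43092746-43093508 siVRK1 pT120 had 121 RPM, siControl pT120 35.8, siVRK1 ubK119 15.0, siControl ubK119 51.1 and VRK1 28.2 RPM, with 49.0 RPM in the siVRK1 and 56.6 RPM in the siControl input. The siVRK1 pT120 library stood above every other and siVRK1 ubK119 below every other, with inputs that differed little. The pT120 change was 3.92 (3.53 to 4.35) and the ubK119 change 0.339 (0.299 to 0.383). Its neighbours chr8:43094573-43095440 and chr8:43095705-43097115 had pT120 changes of 4.48 (3.37 to 5.94) and 4.11 (3.60 to 4.70) and ubK119 changes of 0.221 (0.152 to 0.321) and 0.330 (0.280 to 0.389). Over its own input siVRK1 pT120 stood at 2.48, 2.46 and 2.01 in the 3 regions, and siControl ubK119, the highest of the other libraries, at 0.902, 0.780 and 0.590. These were the 3 largest pT120 changes and the 3 lowest ubK119 changes among regions with 50 reads in each input. They lie within 5 kb, share their surroundings and count as 1 place.

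**Figure D5:**
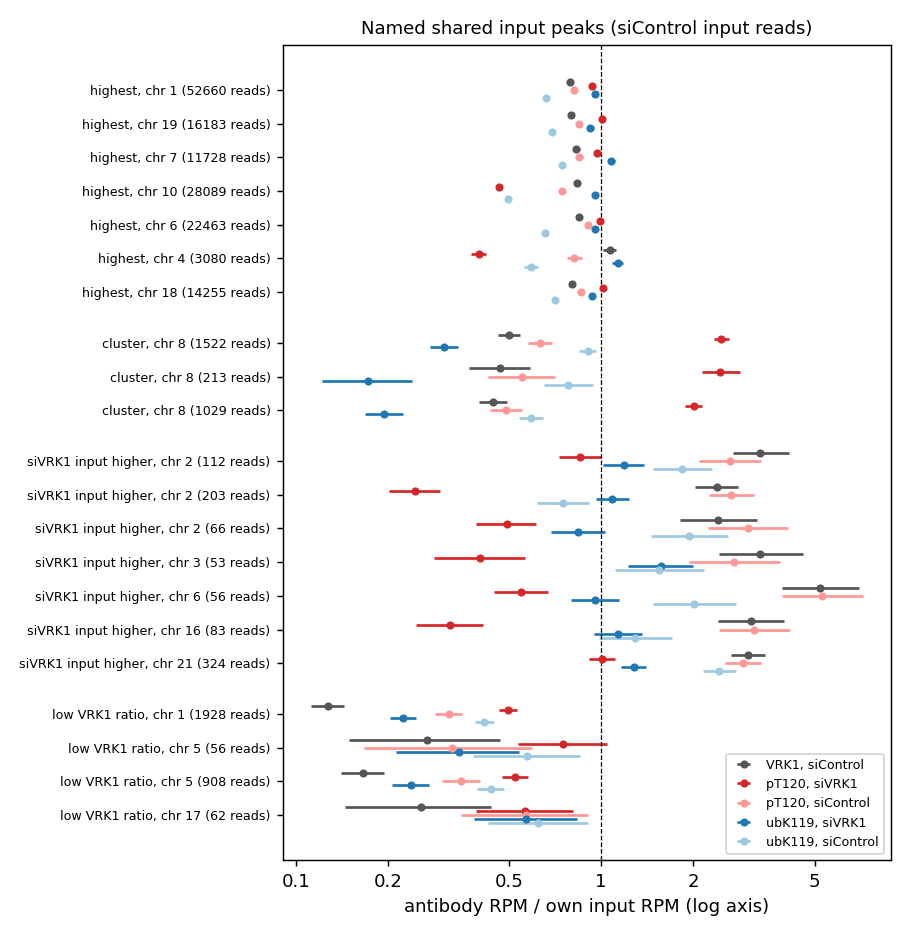
Antibody RPM over own input RPM (log axis) at 21 named shared input peaks, with 95% intervals of counting error: the 7 highest outside chromosome 8, 3 regions of the cluster on chromosome 8, 7 regions where the siVRK1 input exceeded the siControl input, and 4 regions with the lowest VRK1 or siControl pT120 ratios. Those 7 were the named regions whose siVRK1 input was more than 1.5 times the siControl input. The number after each chromosome is the siControl input read count. siVRK1 pT120 stands to the right of the other libraries in the cluster of chromosome 8 and to the left of them at the highest regions of chromosomes 10 and 4.

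The lowest VRK1 ratios came with low ratios of most other antibody libraries. At chr1:564447-570485 siVRK1 pT120 had 35.6 RPM, siControl pT120 22.7, siVRK1 ubK119 16.2, siControl ubK119 29.7 and VRK1 9.11 RPM, with 71.9 RPM in the siVRK1 and 71.7 RPM in the siControl input. No antibody library reached 50% of the input level there, and VRK1 stood at 0.127 (0.112 to 0.144) of it. This stretch is known as a nuclear copy of mitochondrial DNA, and mitochondrial DNA itself carries no histones. It was singled out after its values were seen, and whether its reads came from mitochondria was not tested. At chr5:134258928-134264203, also known as such a copy, the ratios were 0.523 for siVRK1 pT120, 0.348 for siControl pT120, 0.239 for siVRK1 ubK119, 0.434 for siControl ubK119 and 0.165 for VRK1. The pT120 change was 1.56 (1.38 to 1.76) in the first and 1.503 (1.27 to 1.78) in the other, and the ubK119 change 0.542 (0.480 to 0.612) and 0.550 (0.463 to 0.653), the direction opposite to that of the whole set. The short regions chr5:79947642-79948337 and chr17:22023637-22024602 had VRK1 at 0.270 (0.149 to 0.466) and 0.257 (0.145 to 0.436) of input.

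Where VRK1 and siControl pT120 stood highest over input, the siVRK1 input was above the siControl input. A ranking by a ratio over the siControl input favours regions where that input is low, so the choice itself favours this. At chr6:119558438-119558893 siVRK1 pT120 had 4.39 RPM, siControl pT120 10.97, siVRK1 ubK119 7.67, siControl ubK119 4.18 and VRK1 10.8 RPM, with 8.03 RPM in the siVRK1 and 2.08 RPM in the siControl input. VRK1 stood at 5.19 (3.90 to 7.01) and siControl pT120 at 5.27 (3.92 to 7.19) of the siControl input, but at 2.14 and 2.17 of the mean of both inputs. The siControl ubK119 ratio of 2.01 (1.48 to 2.77) turned to 0.827 against the mean and to 0.521 against the siVRK1 input. In chr2:133012462-133013315, chr2:133032561-133033627, chr2:133034484-133034923, chr3:60685811-60686017, chr16:33950155-33950713 and chr21:9826948-9827780 the siVRK1 input was 1.79 to 2.79 times the siControl input, VRK1 stood at 2.39 to 3.32 of the siControl input, and at 1.27 to 2.38 of the mean of both inputs. Of these, chr2:133032561-133033627 was named for its low pT120 change and chr21:9826948-9827780 for its high siControl ubK119 ratio. They are grouped here by their input ratio.

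In all 7 of these regions siVRK1 pT120 and siControl ubK119 again had the lowest RPM of the antibody libraries. At chr2:133032561-133033627 siVRK1 pT120 had 3.86 RPM, siControl pT120 20.1, siVRK1 ubK119 17.1, siControl ubK119 5.66 and VRK1 18.01 RPM, with 15.7 RPM in the siVRK1 and 7.55 RPM in the siControl input. The pT120 change over own input was 0.0923 (0.0718 to 0.119), the lowest among regions with 50 reads in each input, and without division by input it was 0.192. The region chr16:33950155-33950713 had a pT120 change of 0.101 (0.071 to 0.144) over own input and 0.244 without division, and chr6:119558438-119558893 had 0.104 (0.0729 to 0.147) and 0.3996. Without the inputs pT120 was lower in siVRK1 cells in all 3 regions, at a smaller size. The regions were picked by the change over own input, which contains the undivided change, so this is no separate support.

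The highest siVRK1 ubK119 ratios were at chr20:46523453-46524113, with 2.52 (1.97 to 3.25), and chr20:47131613-47133092, with 2.28 (1.90 to 2.75) of the siVRK1 input. Against the mean of both inputs they were 2.92 and 2.29. In the first siVRK1 pT120 had 0.777 RPM, siControl pT120 3.19, siVRK1 ubK119 7.21, siControl ubK119 3.98 and VRK1 3.37 RPM. The siVRK1 input had 2.86 RPM and the siControl input 2.08 RPM there. Every antibody library but siVRK1 pT120 thus stood above both inputs, siVRK1 ubK119 the most. Next was chr9:68996728-68997753, with siVRK1 ubK119 at 1.87 (1.43 to 2.45) of its input. The largest ubK119 changes were at chr12:2364819-2365471, with 5.82 (4.17 to 8.12), at chr8:43775599-43775975, with 5.61 (3.16 to 9.94), and at chr7:158387735-158388194, with 4.03 (2.84 to 5.74). In chr12:2364819-2365471 siVRK1 ubK119 had 7.14 RPM and siControl ubK119 2.05 RPM, with 4.27 RPM in the siVRK1 and 7.14 RPM in the siControl input, and the inputs differed the opposite way.

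The lowest siVRK1 pT120 ratios were 0.149 (0.0965 to 0.224) at chr16:14580730-14581131, 0.166 (0.0866 to 0.295) at chr4:49514722-49514995 and 0.173 (0.119 to 0.247) at chr7:158387735-158388194. The same regions had siControl ubK119 at 0.287, 0.431 and 0.207 of its input, while siControl pT120 stood at 1.07, 0.824 and 0.644. Low siControl ubK119 was also found at chr10:125014392-125015371, with 0.243 (0.144 to 0.397). At the other end chr16:33945535-33946639 had siVRK1 pT120 at 2.04 (1.52 to 2.78) of its input, outside the cluster of chromosome 8. The region chr1:91852695-91853270 had siControl ubK119 at 1.95 (1.66 to 2.30) of its input and at 1.60 of the mean of both inputs.

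Shared input peaks were called by the antibody lists far more often than the whole siControl input list, which contains them, and than siControl-only input peaks. Of the 2377, 1360 (57.2%, 55.2 to 59.2) overlapped a siVRK1 pT120 peak, against 21.3% of the siControl input list, and 1231 (51.8%, 49.8 to 53.8) a siControl pT120 peak, against 14.7%. The ubK119 lists gave 1295 (54.5%, 52.5 to 56.5) after siVRK1, against 14.7%, and 1479 (62.2%, 60.2 to 64.2) in siControl cells, against 21.4%. VRK1 peaks overlapped 1654 (69.6%, 67.7 to 71.4), against 23.4%. Of the siControl-only input peaks 4.25% overlapped a siVRK1 pT120 peak, 1.23% a siControl pT120 peak and 2.01% a siVRK1 ubK119 peak. For siControl ubK119 and VRK1 their shares were 3.77% and 4.39%. All 5 antibody lists called 900 regions (37.9%, 35.9 to 39.8), against 11 of 8786 siControl-only input peaks (0.125%, 0.0625 to 0.224), while 439 (18.5%) lay in none. Shared peaks of the left-out windows were called by all 5 lists in 14.1% (12.7 to 15.6) of cases. Single lists called 55.6% of them for siVRK1 pT120, 41.1% for siControl pT120, 35.02% for siVRK1 ubK119, 56.3% for siControl ubK119 and 64.7% for VRK1, each below the share of the shared peaks outside, and 17.6% were in none. The lists have different depths and height minimums, so shares are compared within a list only.

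Calls were more frequent at higher input depth. Of the 886 regions with under 40 reads of both inputs, 20.7% had a siVRK1 pT120 peak, 14.2% a siControl pT120 peak and 36.8% a VRK1 peak, and 1.92% had all 5. With 100 reads or more but under 200, 81.2% had all 5, with 200 or more but under 1000 99.7%, and the 84 regions with 1000 reads or more had a peak in every list. In those 84 regions the summed ratios over own input were 0.794 for siVRK1 pT120, 0.828 for siControl pT120, 0.954 for siVRK1 ubK119, 0.645 for siControl ubK119 and 0.844 for VRK1, so every antibody list had peaks there with reads below the proportion in the input.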

How the data were processed

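Each deposited list holds the peaks of 1 library, and per the file headers gives for every region a raw count from each of the 7 libraries. The deposited peak height is a signal, namely the maximum of extended reads over the windows of a peak, and was also deposited as RPM; height divided by RPM gave the library totals. The percent of a region covered by peaks of each other library was deposited too, and overlap calls differed from it in 0 cases. Bowtie 0.12.8, CASAVA 1.8.2, Partek and hg19 appear in the submitters' processing notes without roles. Per the labels' protocols libraries had 20 cycles of PCR and 36 of sequencing; caller settings, the handling of duplicates and whether positions count from 0 or 1 were not given in the sources used here. Repeats and PCR duplicates can raise counts.

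Overlap meant at least 1 bp. Counts were divided by library totals (RPM), summed over regions and divided by the RPM of the input of the same siRNA, with exact conditional binomial 95% intervals; changes over own input have intervals on the log scale. Shares have Clopper-Pearson intervals. Single ratios needed at least 20 reads in each input, and counts of regions used a threshold of 1.5-fold. A level of 3 reads corresponded to 0.0742 to 0.145 RPM. Named regions were the 8 of highest siControl input height, and among regions with at least 50 reads in each input the 3 highest and 3 lowest ratios of each antibody library and of the pT120 and ubK119 changes, plus 3 on each side of the overlap threshold. The regions and lists were chosen with earlier results of these data known. Groups came from the sample titles. Calculations were tested on simulated data and used Python 3.11.15, pandas 2.3.3 and scipy 1.17.1. No column of other samples was present (0 unused).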

Additional observations from a re-analysis of the deposited data

How the results depend on the processing

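Summed over the set, no ratio over own input crossed 1 and neither the pT120 nor the ubK119 change turned under the alternatives run, though most values moved by more than counting error. The values below are for siVRK1 pT120, siControl pT120, siVRK1 ubK119, siControl ubK119 and VRK1 over own input, then for the pT120, ubK119 and input change between siRNAs. With at most 100 reads in each input they were 0.622, 0.780, 0.963, 0.646 and 0.840, then 0.797, 1.49 and 0.922. In the bounds of the siVRK1 input peaks they were 0.737, 0.852, 0.965, 0.668 and 0.885, then 0.865, 1.44 and 0.940. With peaks of at least 1.5 times the lowest height they were 0.771, 0.846, 0.973, 0.662 and 0.873, then 0.911, 1.47 and 0.913. Without regions within 2 Mb of the longest peak-free stretch they were 0.616, 0.852, 0.977, 0.678 and 0.925, then 0.723, 1.44 and 0.990. Without those within 2 Mb of the stretch with the densest flanks they were 0.559, 0.879, 0.952, 0.687 and 0.954, then 0.636, 1.39 and 1.04, so that the input change turned. Without the 1% of regions with the most input reads they were 0.687, 0.846, 0.989, 0.678 and 0.904, then 0.812, 1.46 and 0.955. Without the highest region they were 0.724, 0.841, 0.973, 0.658 and 0.882, then 0.861, 1.48 and 0.932. With the windows of chromosomes 3, 5 and 18 kept they were 0.726, 0.832, 0.963, 0.652 and 0.861, then 0.873, 1.48 and 0.911. As medians of single regions, with 20 reads in the own input for ratios and in each input for changes, they were 0.573, 0.801, 0.966, 0.629 and 0.860, then 0.799, 1.55 and 0.912.

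Over the mean of both inputs the 5 ratios were 0.718, 0.875, 0.926, 0.688 and 0.907 in the same order, and over the input of the other siRNA 0.687, 0.917, 0.886, 0.720 and 0.950. Not divided by input, the changes were 0.821 for pT120 and 1.35 for ubK119, and that for pT120 turned at the highest region, chr1:121483973-121485649, to 0.924 instead of 1.15 over own input, and at 4 regions like it. With an overlap of at least 50% the input change was 0.917. The number of shared peaks was 974 with the higher peaks alone and 4644 with the windows kept.

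Asking for 50 instead of 20 reads in each input, the share of regions at least 1.5-fold lower was 8.79% for VRK1, 17.6% for siControl pT120, 3.61% for siVRK1 ubK119 and 3.92% for the ubK119 change, and the share at least 1.5-fold higher 3.14% for siVRK1 ubK119 and 1.57% for siControl ubK119. With 1 read, 29.98% were lower for VRK1 and 20.2% for siVRK1 ubK119. At chr6:119558438-119558893 the siControl ubK119 ratio turned, to 0.827 over the mean of both inputs and 0.521 over the other input. The cause of these moves was not tested.

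The stretch with the densest flanks, the omission of the highest region, the windows kept for ratios and the classes by input reads were added after the data were seen. No paired analysis was possible because each condition has 1 library. Spread between replicates is therefore unknown for all values, and depth limits single regions with few reads.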
